A study of Homo sapiens with 12 samples.

Results

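The 8 genes followed here in HEK293 cells are the growth factor-inducible immediate early response genes IER2, IER3, IER5 and IER5L, the inducible polo-like kinase genes PLK2 and PLK3, the serum- and glucocorticoid-regulated kinase gene SGK1, and BCAR3. They were found in the deposited RPKM table by Ensembl identifier through the GENCODE annotation, and all 8 of 8 were among its 26058 genes. RPKM is the number of reads on a gene divided by gene length and library size, here a size that may already be normalised. All 8 also passed the filter on low values, a mean of at least 0.5 RPKM over the libraries, which left 22067 genes to be tested.

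HEK293 is a human embryonic kidney line, used here as the parental cells (WT) and as a derivative in which CRISPR had knocked out PRKAA1 and PRKAA2, which encode the catalytic α subunits of AMPK, a kinase that senses cellular energy (AMPK KO). Whether the derivative was 1 clone was not given in the sources used here. All cells were starved of serum for 24 h. In each line they were given the solvent DMSO at 0.025% alone (DMSO), DMSO and then epidermal growth factor for 30 min (DMSO+EGF), or 25 µM cordycepin in DMSO with EGF added for the last 30 min of 50 min (cordycepin+EGF). Cordycepin is 3′-deoxyadenosine, an adenosine analogue. The EGF concentration was given as 15 in different units, µM in the sample labels and nM in the design text, which was not resolved. The 12 stranded, ribosomal RNA-depleted libraries form 6 groups of 2, and the replicates are numbered 2 and 3.

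Immediate early genes are transcribed within minutes of a growth factor signal and need no new protein synthesis. EGF activates the RAS, RAF, MEK and ERK cascade, and ERK substrates such as ELK1 act with serum response factor at many of their promoters. IER2 encodes a nuclear protein, IER3 a regulator of cell survival, IER5 a partner of heat shock factor HSF1 and of protein phosphatase PP2A, and IER5L a relative of IER5. PLK2 and PLK3 are inducible members of the polo-like kinase family, which is best known for roles at the centriole, in the cell cycle and in stress responses. SGK1 is a kinase activated by PDK1 and mTORC2 downstream of PI3K, and BCAR3 is an adaptor that binds the scaffold protein BCAR1 (p130Cas).

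The 8 genes lie on 5 chromosomes in GRCh38. IER2 (ENSG00000160888) is at chr19:13150411-13154911 on the plus strand and IER3 (ENSG00000137331) at chr6:30743199-30744548 on the minus strand. IER5 (ENSG00000162783) is at chr1:181088700-181092900 on the plus strand and IER5L (ENSG00000188483) at chr9:129175552-129178261 on the minus strand. PLK2 (ENSG00000145632) is at chr5:58453982-58460139 on the minus strand and PLK3 (ENSG00000173846) at chr1:44800377-44805990 on the plus strand. SGK1 (ENSG00000118515) is at chr6:134169248-134318112 and BCAR3 (ENSG00000137936) at chr1:93561741-93847150, both on the minus strand. PLK3 is overlapped on the other strand by DYNLT4 (mean 2.13 RPKM), and BCAR3 by BCAR3-AS1 (0.554 RPKM) and MIR760 (3.87 RPKM). IER2, IER3, IER5L and SGK1 are overlapped on the other strand by annotated genes that are not among the listed ones. SGK1 is also overlapped by KRT8P42 on its own strand, which is not listed either. Whether counting used the strand was not given, so reads of overlapping genes may not be fully separated from those of the members.

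The promoters of IER2, PLK2, PLK3 and SGK1 are shown, for the gene with the largest EGF difference below and for the 3 inducible kinases. Each is the 250 bases before a RefSeq transcript start on GRCh38.p14, written 5′ to 3′ on the strand of the gene, and capitals mark each match to a motif searched. IER2 is chr19:13150161-13150410 (plus), PLK2 chr5:58460087-58460336 (minus), PLK3 chr1:44800127-44800376 (plus), and SGK1 chr6:134174867-134175116 (minus), the first of 3 SGK1 windows by position.
IER2: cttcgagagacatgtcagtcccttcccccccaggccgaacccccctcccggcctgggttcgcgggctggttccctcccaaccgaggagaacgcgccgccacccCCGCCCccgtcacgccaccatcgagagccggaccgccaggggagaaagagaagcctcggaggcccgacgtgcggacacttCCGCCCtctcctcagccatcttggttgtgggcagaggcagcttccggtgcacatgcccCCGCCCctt
PLK2: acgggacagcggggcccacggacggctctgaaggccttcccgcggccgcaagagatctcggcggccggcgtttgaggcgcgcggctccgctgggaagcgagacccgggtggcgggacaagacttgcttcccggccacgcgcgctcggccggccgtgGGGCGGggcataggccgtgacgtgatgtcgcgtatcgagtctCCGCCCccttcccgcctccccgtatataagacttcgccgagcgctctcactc
PLK3: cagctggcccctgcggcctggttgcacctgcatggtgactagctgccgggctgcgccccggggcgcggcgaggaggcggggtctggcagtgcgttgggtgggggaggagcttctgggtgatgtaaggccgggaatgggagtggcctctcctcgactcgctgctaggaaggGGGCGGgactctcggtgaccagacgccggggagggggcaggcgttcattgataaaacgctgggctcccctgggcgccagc
SGK1: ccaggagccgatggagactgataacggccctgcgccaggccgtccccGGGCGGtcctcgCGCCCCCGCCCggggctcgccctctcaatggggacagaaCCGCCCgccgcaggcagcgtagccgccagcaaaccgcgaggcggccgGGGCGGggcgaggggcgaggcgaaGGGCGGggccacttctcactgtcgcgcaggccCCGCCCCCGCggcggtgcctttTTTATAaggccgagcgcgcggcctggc

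RefSeq windows were found for 7 of the 8 genes, 18 windows in all because SGK1 has 3 and BCAR3 10. Motifs were searched on both strands of all 35116 human windows of the same length. The GC box GGGCGG was in 8 of the 18, including the 4 printed, against 42.6% of all windows. It is the only motif marked in the windows of IER2, with 3 matches, of PLK2, with 2, and of PLK3, with 1. The SGK1 window holds the EGR motif GCGGGGGCG 2 times, overlapping GC boxes, and that motif is in 4.72% of windows. It also holds the TATA motif TATAAA on the reverse strand, which is in 4 of the 18 windows and in 10.7% of all. The AP-1 motif TGAGTCA was in 2 BCAR3 windows and in 4.2% of all. No member window held the CArG box (1.16% of all windows), the CRE TGACGTCA (1.65%), the ETS motif CCGGAAGT (3.42%) or the EGR motif GCGTGGGCG (0.72%). A match says only that these letters are present.

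Depth was uneven, from 3996762 recovered reads in WT DMSO replicate 3 to 12638506 and above, up to 26366567, in the other libraries. The targeted gene PRKAA1 had 18.7 ± 4.69 scaled RPKM (SD, n = 2) in WT DMSO and 7.39 ± 0.275 in AMPK KO DMSO, and fell by 1.26 on the log2 scale (limma, adjusted p = 0.0228). PRKAA2 was at 10.1 ± 3.00 and 5.75 ± 0.267, a log2 difference of -0.73 with an adjusted p of 0.112. With EGF the 2 genes differed between the lines by -1.12 and -0.59, and 1 passed adjustment. With cordycepin and EGF they differed by -0.49 and -0.12, and 0 passed. Summed markers of HEK293 cells (VIM, KRT8, KRT18, NEFM, NEFL, PAX2) were at 90.6 to 140 scaled RPKM in every library. Of those, NEFM and PAX2 stayed under 1 scaled RPKM. Of 10 markers of leukocytes, fibroblasts, hepatocytes and endothelium, 3 (PTPRC, CD68 and COL1A1) were in the table. Their sum was 0.66 to 0.75 scaled RPKM in WT DMSO, 1.16 to 1.32 in WT DMSO+EGF, 1.08 to 1.16 in WT cordycepin+EGF, 0.382 to 0.729 in AMPK KO DMSO, 0.497 to 0.503 in AMPK KO DMSO+EGF, and 1.31 to 1.36 in AMPK KO cordycepin+EGF. COL1A1, the one of them tested, fell by 0.92 on the log2 scale in AMPK KO against WT with EGF (limma, adjusted p = 0.0499), and differed by 0.55 with EGF in WT cells (adjusted p = 0.485). The part of these markers in the results was not tested. PTPRC stayed at or under 0.0607 scaled RPKM.

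Levels are given as scaled RPKM, that is RPKM brought to a common upper quartile, and the 8 genes spanned a wide range (see the plot of levels by library). By mean level, IER3 ranked within the top 24.5% of listed genes, IER5 within 27.1% and IER2 within 27.8%. The kinases were lower, with PLK3 at 43.9%, PLK2 at 51.9% and SGK1 at 79.0%. BCAR3 was at 66.4% and IER5L at 78.7%. Behind these values stood 63 to 806 recovered reads a library for IER2, 51 to 476 for PLK2, 17 to 223 for SGK1 and 6 to 105 for IER5L, the least supported gene. In bulk RNA, fewer cells expressing a gene and less RNA per cell cannot be told apart.

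**Figure D1:**
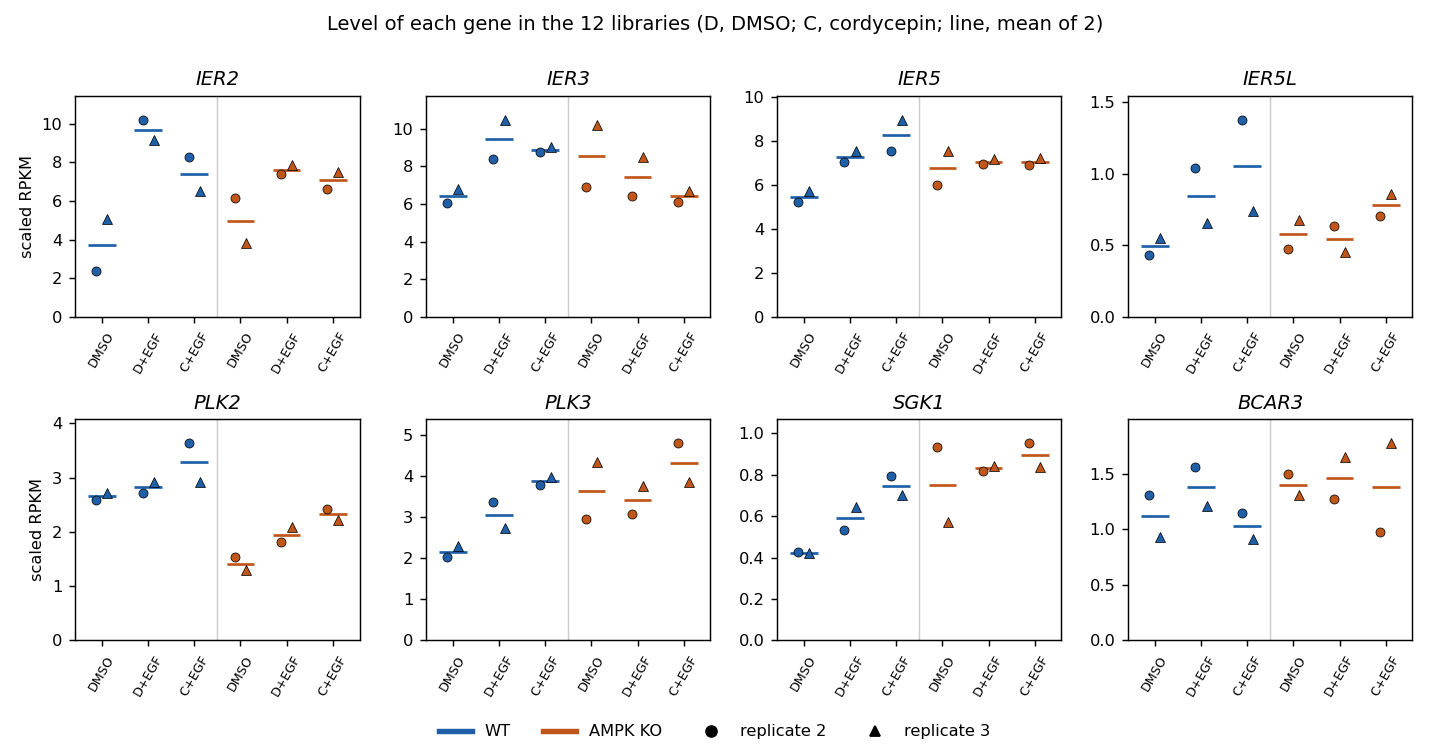
Scaled RPKM (y axis, from 0) of each gene in the 12 libraries, by group (x axis), with WT in blue, AMPK KO in orange, circles for replicate 2, triangles for replicate 3 and a line at the mean of 2. IER2 is lowest in the DMSO groups of both lines, PLK2 is lower in each AMPK KO library (1.30 to 2.43) than in any WT library (2.59 to 3.64), and the 2 libraries of a group are often far apart for IER5L and BCAR3.

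IER2 had 2.40 and 5.07 scaled RPKM in the 2 WT DMSO libraries and 10.2 and 9.15 in WT DMSO+EGF. In AMPK KO cells it had 6.16 and 3.83 in DMSO and 7.38 and 7.88 with EGF. Both EGF libraries lay above both DMSO libraries in each line. IER2 also had the largest EGF difference of the 8 genes in each line, although its DMSO replicates were far apart.

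The EGF response was asked first in WT cells. The IER2 difference between DMSO+EGF and DMSO was 1.34 on the log2(scaled RPKM + 0.5) scale used for all differences (SE 0.301, 95% interval 0.66 to 2.02, limma adjusted p = 0.428). IER3 differed by 0.51 (interval 0.06 to 0.97) and IER5 by 0.38 (0.07 to 0.70). In IER3 the DMSO libraries were at 6.08 and 6.79 scaled RPKM and the EGF libraries at 8.41 and 10.5. IER5 gave 5.23 and 5.72 against 7.05 and 7.54. Thus 3 of the 8 genes, all from the IER group, had an unadjusted p under 0.05 upwards, against 6.18% of all genes tested. None of the 8 passed an adjusted p of 0.05, which 0.0227% of genes (5 of 22067) did. Without WT DMSO replicate 2 that share was 3.18% (702 genes), still with no member.

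For the remaining genes the intervals in WT cells included 0. IER5L differed by 0.43 (-0.14 to 0.99), PLK3 by 0.41 (-0.05 to 0.88), SGK1 by 0.24 (-0.19 to 0.66), BCAR3 by 0.22 (-0.34 to 0.79) and PLK2 by 0.07 (-0.30 to 0.45). PLK3, a stress-responsive kinase, had 2.02 and 2.31 scaled RPKM in DMSO and 3.37 and 2.74 with EGF. SGK1 had 0.426 and 0.422 in DMSO, the second from 17 reads, and 0.531 and 0.646 with EGF. For low genes the added 0.5 shrinks differences, and in limma's voom on recovered reads IER5L differed by 0.84 (-0.18 to 1.86) and SGK1 by 0.43 (-0.22 to 1.09). For IER2 voom gave 1.705 (1.099 to 2.312, adjusted p = 0.0615), in a fit that called 0.0319% of all genes. Counted by libraries alone, 7 of the 8 genes lay higher with EGF with no overlap of the groups, all but BCAR3, and 18.7% of all genes did so. For PLK2 the nearest libraries were at 2.72 with EGF and 2.718 scaled RPKM in DMSO. The median of the 8 differences was 0.40, against 0.02 over all genes.

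Leaving out the shallow WT DMSO replicate 3 raised the IER2 difference to 1.81 (adjusted p = 0.176, limma), and leaving out WT DMSO replicate 2, in which IER2 was lowest, lowered it to 0.87 (adjusted p = 0.0935). The count of genes with an unadjusted p under 0.05 fell to 1 of 8 without WT DMSO replicate 2 or without WT DMSO+EGF replicate 3.

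In AMPK KO cells every EGF interval included 0. IER2 differed by 0.60 (-0.08 to 1.28) and PLK2 by 0.35 (-0.02 to 0.73). PLK2 had 1.53 and 1.30 scaled RPKM in AMPK KO DMSO and 1.81 and 2.09 in AMPK KO DMSO+EGF. These were the 2 genes that lay higher with EGF without overlap, against 20.2% of all genes. The other 6 differences ran from -0.17 for IER3 to 0.10 for SGK1. IER3 had 6.91 and 10.2 scaled RPKM in AMPK KO DMSO and 6.43 and 8.48 with EGF, so its groups overlapped. No member passed an adjusted p of 0.05 (0.0136% of genes did) or had an unadjusted p under 0.05.

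**Figure D2:**
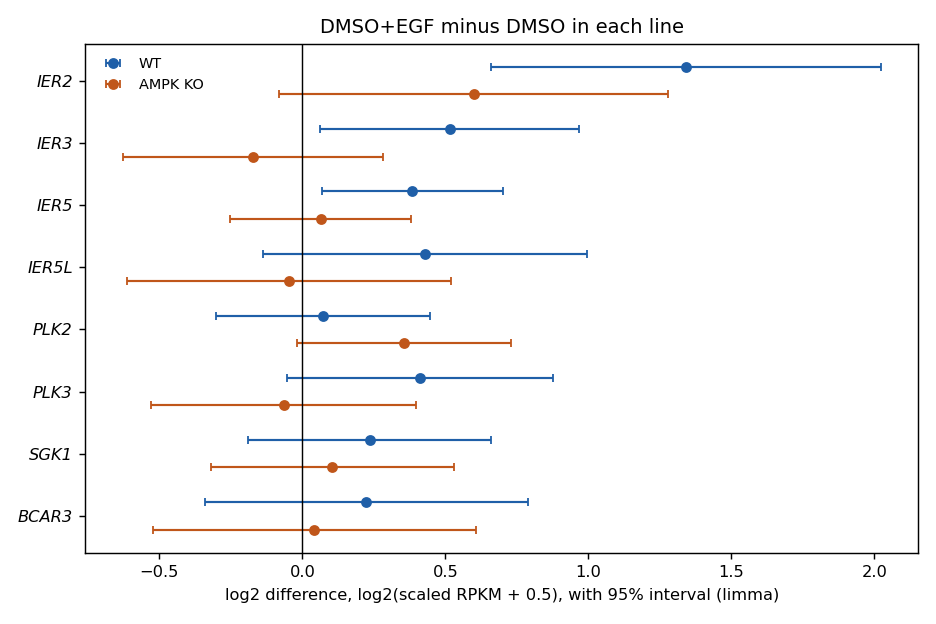
Log2 difference between DMSO+EGF and DMSO (x axis) for each gene (y axis) in WT (blue) and AMPK KO (orange) cells, with the 95% interval of the limma fit. The WT intervals of IER2, IER3 and IER5 lie above 0, and every AMPK KO interval spans 0.

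Whether the EGF difference itself differed between the lines was tested as an interaction. For IER3 it was -0.69 on the log2 scale, AMPK KO minus WT (interval -1.33 to -0.05, limma adjusted p = 0.570). That was the single member with an unadjusted p under 0.05 downwards, against 5.38% of genes. The estimates were also below 0 for IER2 (-0.74, -1.71 to 0.22), PLK3 (-0.48, -1.13 to 0.18), IER5L (-0.47, -1.28 to 0.33) and IER5 (-0.32, -0.77 to 0.13). So were those of BCAR3 (-0.18, -0.98 to 0.62) and SGK1 (-0.13, -0.73 to 0.47), and that of PLK2 was above 0 (0.28, -0.25 to 0.81). Apart from IER3, every interval included 0. No gene of the table passed adjustment in this comparison (0% called).

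Other immediate early genes were read in the same comparison. Of 23 tested, 18 had an unadjusted p under 0.05 upwards in WT cells, where 6.18% of all genes did, 5 passed adjustment and the median difference was 0.74. The transcription factor genes EGR1, EGR3, FOS, FOSB and EGR2 rose in WT cells, by 6.16, 3.35, 3.29, 1.95 and 1.75 on the log2 scale (limma, adjusted p from 2.48e-06 to 0.0282). In AMPK KO cells 11 of 23 had an unadjusted p under 0.05 upwards, against 1.03% of all genes, and EGR1, FOS and EGR3 passed adjustment. Of the 19 genes of the route from EGF to ERK, from EGFR to SRF, none passed adjustment in either line, and the median difference was 0.01 in WT and 0.06 in AMPK KO cells.

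Cordycepin was compared with solvent in EGF-treated cells. In WT cells the members had estimates in both directions and every interval included 0. IER2 had 8.28 and 6.55 scaled RPKM in WT cordycepin+EGF, below both WT DMSO+EGF libraries, a log2 difference of -0.37 (-1.05 to 0.31). BCAR3 had 1.14 and 0.911 against 1.56 and 1.21, a difference of -0.30 (-0.87 to 0.26). These 2 genes lay lower without overlap, as did 24.7% of all genes.

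The estimates of PLK3, SGK1 and PLK2 lay above 0, as did those of IER5 and IER5L, all with intervals that include 0. PLK3 had 3.78 and 3.98 scaled RPKM in WT cordycepin+EGF, above both EGF libraries, a difference of 0.31 (-0.16 to 0.77). SGK1 had 0.793 and 0.700 (0.20, -0.23 to 0.62), and PLK2 had 3.64 and 2.93 (0.18, -0.19 to 0.56). With IER5 at 7.57 and 8.97 (0.17, -0.15 to 0.48), 4 of 8 genes lay higher without overlap, against 29.2% of all genes. For IER5 and PLK2 the groups overlapped on RPKM as deposited. IER5L (0.19, -0.37 to 0.76) and IER3 (-0.08, -0.53 to 0.38) overlapped. None of the 8 passed an adjusted p of 0.05, as 0.00453% of genes did, and none had an unadjusted p under 0.05.

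In AMPK KO cells the cordycepin differences ran from -0.19 for IER3 (-0.65 to 0.26) to 0.30 for PLK3 (-0.16 to 0.76) and IER5L (-0.27 to 0.86). PLK2 gave 0.21 (-0.17 to 0.58), with 2.43 and 2.22 scaled RPKM in AMPK KO cordycepin+EGF. IER2 gave -0.10 (-0.79 to 0.58), with 6.62 and 7.53 scaled RPKM. PLK3, IER5L and PLK2 lay higher without overlap, 3 of 8 genes against 32.2% of all, and PLK3 overlapped on RPKM as deposited. No member passed adjustment (0.471% of genes did) or had an unadjusted p under 0.05.

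The test of a difference in the cordycepin response between the lines gave estimates from -0.17 for IER5 (-0.62 to 0.28) to 0.27 for IER2 (-0.70 to 1.23). In this fit 0 members and 0% of genes were called. The share of genes called depended on the fit. It was 5.11% when only the groups compared were fitted and 9.8% in voom on recovered reads, each with 0 members.

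**Figure D3:**
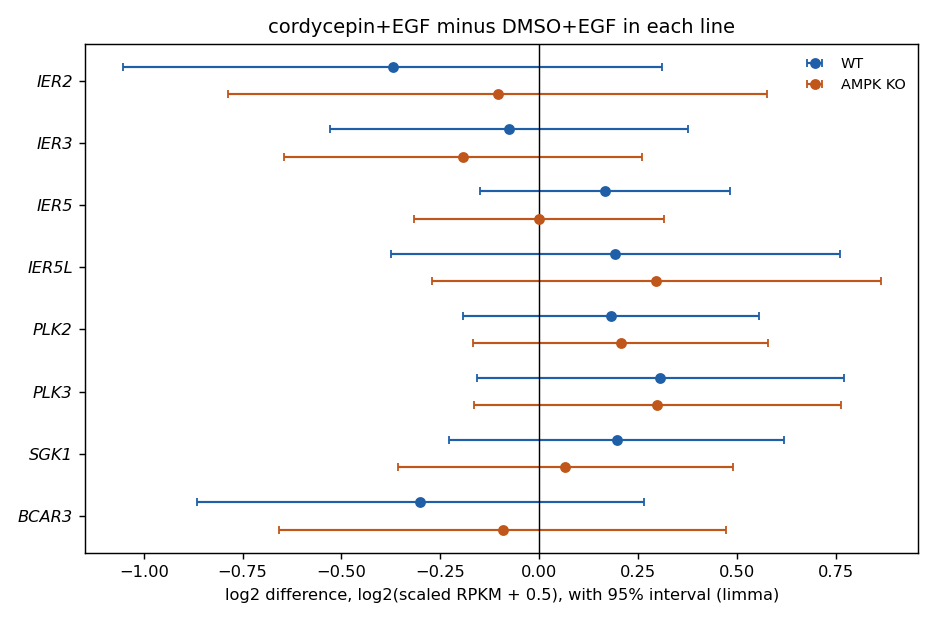
Log2 difference between cordycepin+EGF and DMSO+EGF (x axis) for each gene (y axis) in WT (blue) and AMPK KO (orange) cells, with the 95% interval of the limma fit. Every interval spans 0, and the estimates of PLK2, PLK3, SGK1 and IER5L lie above 0 in both lines.

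Related genes on the fixed lists were read under the same treatment. EGR1 fell by 2.00 on the log2 scale with cordycepin in WT cells (limma, adjusted p = 0.0439), and 9 of the 23 other immediate early genes had an unadjusted p under 0.05 downwards there, against 7.13% of all genes. KLF6 fell by 0.87 in AMPK KO cells (adjusted p = 0.0325), where 8 had an unadjusted p under 0.05 downwards and 3 upwards, against 10.1% and 11.7% of all genes. Among 10 genes around SGK1, none passed adjustment. NDRG1, an SGK1 substrate, differed by -1.57 in WT cells (limma, adjusted p = 0.185), and FOXO3, another, by -0.41.

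IER5 binds HSF1, so HSF1 and 7 of its target, partner or co-factor genes were read beside it. With cordycepin in AMPK KO cells all 8 had negative differences, 4 had an unadjusted p under 0.05 downwards, against 10.1% of all genes, and PPP2R2A, a PP2A regulatory subunit, fell by 0.54 (limma, adjusted p = 0.0490). The median was -0.64 there and 0.44 in WT cells. IER5 itself was at 6.90 and 7.24 scaled RPKM in AMPK KO cordycepin+EGF and 6.98 and 7.17 in AMPK KO DMSO+EGF, which overlap.

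Cells given cordycepin and EGF were also compared with unstimulated cells. In WT cells 5 of 8 genes had an unadjusted p under 0.05 upwards, against 12.7% of all genes. The count was 2 without WT DMSO replicate 2 or WT cordycepin+EGF replicate 2, and 3 without WT DMSO replicate 3. With all libraries they were IER2 (0.97, 0.29 to 1.65), PLK3 (0.72, 0.25 to 1.18), IER5L (0.62, 0.05 to 1.19), IER5 (0.55, 0.23 to 0.87) and SGK1 (0.43, 0.01 to 0.86). In voom on recovered reads IER5L was at 1.17 (0.17 to 2.16) and SGK1 at 0.81 (0.18 to 1.45). With IER3 (0.44, -0.01 to 0.89) and PLK2 (0.26, -0.12 to 0.63), 7 of 8 lay higher without overlap, against 24.8% of genes. BCAR3 was at -0.08 (-0.64 to 0.49). The median of the 8 was 0.49, against 0.03 over all genes.

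None of these 8 differences passed adjustment (0.068% of genes did). The lowest adjusted p was 0.127, for IER5 (limma). IER2 passed in limma's voom on recovered reads (1.33, adjusted p = 0.0405), which called 2.64% of all genes, and without WT DMSO replicate 3 (1.44, adjusted p = 0.0251), where 8.46% of all genes were called, while without WT DMSO replicate 2 it was 0.50 (adjusted p = 0.355). The comparison shares its WT DMSO libraries with the EGF comparison and its treated libraries with the cordycepin comparison.

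In AMPK KO cells PLK2 had the one unadjusted p under 0.05 upwards (12.2% of genes had one), with a difference of 0.56 (0.19 to 0.93, limma adjusted p = 0.127). PLK2, IER2 (0.49, -0.19 to 1.17) and IER5L (0.25, -0.32 to 0.82) lay higher without overlap, 3 of 8 against 30.8% of genes, although IER5L overlapped on RPKM as deposited. IER3 lay lower without overlap (-0.37, -0.82 to 0.09), as did 25.3% of genes. No member passed adjustment, which 0.358% of genes did.

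Between the lines in DMSO, the estimates for the polo-like kinase genes PLK2 and PLK3 were of opposite sign. PLK2, at 2.59 and 2.72 scaled RPKM in WT DMSO and 1.53 and 1.30 in AMPK KO DMSO, differed by -0.72 (-1.10 to -0.35, limma adjusted p = 0.0770). PLK3, at 2.02 and 2.31 in WT DMSO and 2.96 and 4.35 in AMPK KO DMSO, differed by 0.62 (0.16 to 1.08, limma adjusted p = 0.149). These were the 2 members with an unadjusted p under 0.05, 1 lower (9.29% of all genes) and 1 higher (12% of all genes). The count was 1 without WT DMSO replicate 2 and 4 without AMPK KO DMSO replicate 2. Neither passed adjustment (0.44% of genes did), but PLK2 did in voom on recovered reads (-0.90, adjusted p = 0.0312), which called 8.24% of all genes. Without WT DMSO replicate 3, 13.9% of all genes passed and no member did.

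SGK1 was at 0.933 and 0.569 scaled RPKM in AMPK KO DMSO, a difference of 0.42 (-0.00 to 0.85, limma adjusted p = 0.235). In voom on recovered reads it was 0.76 (0.10 to 1.42, adjusted p = 0.130), and IER2 was at 0.70 (0.05 to 1.35, adjusted p = 0.158). IER2 gave 0.42 (-0.26 to 1.10), IER3 0.36 (-0.09 to 0.81), IER5 0.28 (-0.04 to 0.60), BCAR3 0.24 (-0.32 to 0.81) and IER5L 0.12 (-0.45 to 0.68). In all, 5 members lay higher in AMPK KO DMSO without overlap (IER3, IER5, PLK3, SGK1 and BCAR3), against 25.3% of genes, and 1, PLK2, lay lower, against 23.2%. The IER2 difference was -0.05 without WT DMSO replicate 2 and 0.89 without WT DMSO replicate 3. The WT DMSO libraries of this comparison also enter the EGF comparison in WT cells and the EGF interaction, so these are not separate evidence.

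The PLK2 estimate was below 0 in all 3 treatments. The difference between AMPK KO and WT was -0.44 with EGF (-0.81 to -0.07, limma adjusted p = 0.162) and -0.42 with cordycepin and EGF (-0.79 to -0.04, adjusted p = 0.331). No AMPK KO library overlapped the WT libraries of its treatment. PLK2 was the only member with an unadjusted p under 0.05 in these 2 comparisons, against 11.4% and 6.64% of genes downwards. By mean scaled RPKM the 6 groups of PLK2 were ordered WT cordycepin+EGF, WT DMSO+EGF, WT DMSO, AMPK KO cordycepin+EGF, AMPK KO DMSO+EGF and AMPK KO DMSO. Neighbours did not overlap, but WT DMSO+EGF and WT DMSO were apart only by 2.72 against 2.718, the latter from 51 reads. On RPKM as deposited, WT cordycepin+EGF and WT DMSO+EGF overlapped. The share of all genes with 6 such groups was not counted.

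SGK1 lay higher in AMPK KO cells without overlap in all 3 treatments, with differences of 0.42, 0.29 (-0.13 to 0.72) and 0.16 (-0.26 to 0.59) in DMSO, DMSO+EGF and cordycepin+EGF. It was the only member higher in the latter 2, against 31.3% and 23.7% of genes. PLK3 gave 0.14 in each of those (-0.32 to 0.61 with EGF), with overlapping libraries. Lower without overlap in AMPK KO DMSO+EGF were 3 members, PLK2, IER2 (-0.32, -1.0 to 0.36) and IER5L (-0.36, -0.93 to 0.21), against 31.6% of genes, while IER3 (-0.33, -0.78 to 0.13) overlapped. With cordycepin and EGF they were PLK2, IER3 (-0.44, -0.90 to 0.01) and IER5 (-0.21, -0.53 to 0.11), against 22.1%. No member passed adjustment with EGF (1.74% of genes did) or with cordycepin and EGF (0.118%).

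**Figure D4:**
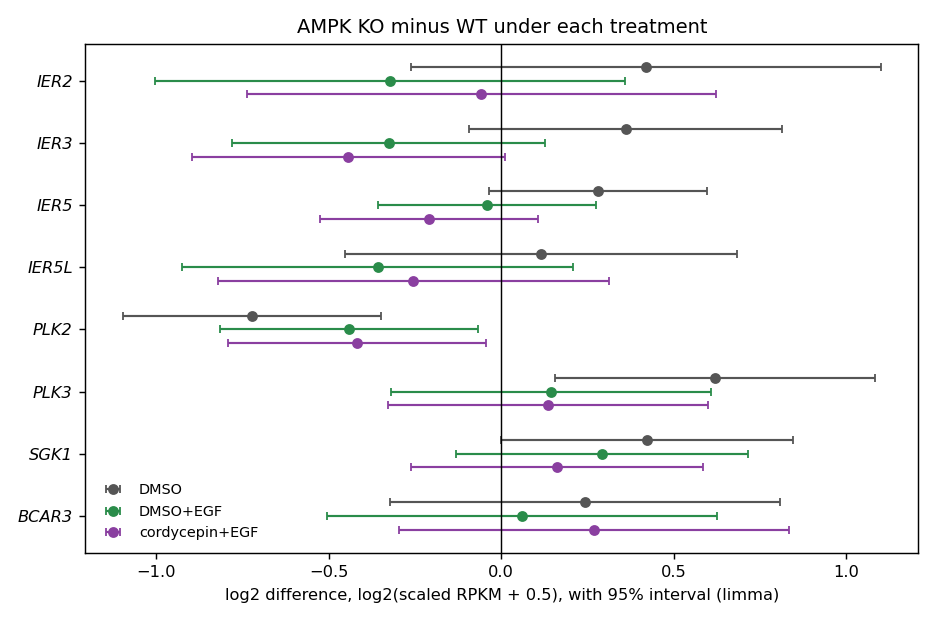
Log2 difference between AMPK KO and WT cells (x axis) for each gene (y axis) under DMSO (grey), DMSO+EGF (green) and cordycepin+EGF (purple), with the 95% interval of the limma fit. The PLK2 intervals lie below 0 in all 3 treatments, and the PLK3 interval lies above 0 in DMSO.

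Relatives of the members were tested for comparison. With cordycepin, PLK1, the mitotic kinase of the PLK family, differed by -0.69 in WT cells (limma, adjusted p = 0.252). In AMPK KO cells PLK1 gave 0.38 (limma, adjusted p = 0.191) and PLK4, the centriole kinase, -0.49 (adjusted p = 0.0825). With EGF, PLK4 differed by -0.32 in WT cells (limma, adjusted p = 0.497). Between the lines with EGF, PLK4 gave 0.51 (adjusted p = 0.0630) and PLK1 -0.39 (adjusted p = 0.176), and with cordycepin and EGF PLK1 gave 0.68 (adjusted p = 0.174, limma). In DMSO, BCAR1, the partner of BCAR3, differed by 0.51 (limma, adjusted p = 0.157) and SH2D3A, in the family of BCAR3, by -0.68 (adjusted p = 0.155). None of the 6 tested relatives passed adjustment in any of the 11 comparisons.

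Over the 88 tests of 8 genes in 11 comparisons, limma gave an adjusted p under 0.05 in 0 and an unadjusted p under 0.05 in 14, of which 10 were upwards. The 14 are near the share over all genes, 16.3% of 242737 tests with an unadjusted p under 0.05. Voom on recovered reads gave 2 and 19, with 4.53% and 20% over all genes. Across the 12 libraries, Pearson's r between members, given as a description, was highest for IER5 with PLK3 (0.724), IER3 with IER5 (0.666) and PLK3 with SGK1 (0.62), and lowest for PLK2 with BCAR3 (-0.405). The libraries are shared by all genes and the 6 groups are not independent points.

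Of 11677 protein-coding genes with a mean of at least 1 RPKM, those most like IER2 over the 12 libraries were ZFP36 (r = 0.849), EGR3 (0.84) and FOSB (0.837). The 3 are themselves immediate early genes on the list above. The genes most like PLK2 were SEMA3E (0.931), DENND10 (0.922) and TMBIM1 (0.916), and those most like PLK3 were SLC9A5 (0.937), ARHGAP33 (0.936) and CHMP2A (0.934). The closest to IER5 was IRF3 (0.943), to IER5L BSG (0.91), to BCAR3 ACTN1 (0.909), to IER3 CDIPT (0.895) and to SGK1 CNTNAP1 (0.876).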

How the data were processed

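RNA from HEK293 cells was sequenced in 12 libraries, which the sample labels assign to 6 groups with a replicate number each. The authors mapped paired reads to GRCh38.p13, as the submitters' processing notes also give, counted them with Rsubread and deposited RPKM values. The annotation release was not given in the sources used here. A replicate 1, which the authors set aside, was not analysed here. The members and gene lists were chosen with earlier results of these data known.

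The deposited table lists 26058 genes and 2 rows that name no gene, which were left out. Identifiers were matched to GENCODE release 44 for 26029 genes. Low RPKM values fell on steps of 1 read, and for 96.25% of genes the annotated length gave reads within 0.05 of a whole number. For some others, SGK1 among them, a length was searched that did so, and genes with many reads were rounded. In all, reads were recovered for 99.45% of genes. The library size behind the deposited values was 0.977 to 1.16 times the recovered reads of a library. The study's supplement describes RPKM after upper-quartile normalisation, so the deposited values may already carry one. Those reads give depth, and an error from counting alone would be too small.

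RPKM was scaled to a common upper quartile, and log2(scaled RPKM + 0.5) was tested with limma 3.58.1 in R 4.3.3 (eBayes with trend), two-sided, for 22067 genes with a mean of at least 0.5 RPKM. All 12 libraries entered 1 fit of 6 group means, with 6 residual degrees of freedom (8.96 after moderation) and p-values were adjusted by Benjamini-Hochberg over all genes in each of the 11 comparisons. The added 0.5 understates differences of low genes. Replicates are described as biological by the study, with no statement of separate cultures, so p-values measure the spread between these samples.

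The 8 members are described in full. Genes named from the lists had an unadjusted p under 0.05 and were among the 4 largest of their list in a comparison, though not all such genes are named. The EGF rise of EGR2 and the values of COL1A1, a marker, were added after they were seen. Motifs were searched in RefSeq promoter windows. As alternatives, the pseudocount was set to 0.1 or 1, and the filter was removed or raised to 1 RPKM. The scaling added here was left out (RPKM as deposited) or done by median ratios. The fit held only the groups compared or a replicate block (over both lines or within each), or the eBayes trend was dropped. Limma's voom was run on recovered reads, and each library was left out in turn. Counts at an unadjusted p under 0.05 and counts without overlap were repeated under these alternatives as an addition made after seeing the data.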

Additional observations from a re-analysis of the deposited data

Results flagged for a closer look

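The EGF difference of IER3 differed between the lines at an unadjusted p under 0.05. The interaction was -0.69 on the log2 scale (AMPK KO minus WT, limma adjusted p = 0.570), and it was the 1 of 16 interaction tests of the 8 genes with such an unadjusted p. In WT cells both EGF libraries lay above both DMSO libraries, while in AMPK KO cells the groups overlapped, with DMSO replicates at 6.91 and 10.2 scaled RPKM. The WT DMSO replicate 3 value of IER3 rests on 37 recovered reads, its fewest in a library. Leaving out 1 library at a time gave -0.95 to -0.42. It failed adjustment over all genes.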

How the results depend on the processing

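Of 64 named log2 differences, the direction held in 687 of 689 values under the processing settings and in 757 of 768 values with 1 library left out. The 2 turned by a setting were IER5L and BCAR3 between the lines in DMSO, with the block within each cell line. No setting removed a call, since limma made none. Voom on recovered reads called 1 member in cordycepin+EGF against DMSO in WT cells (IER2) and 1 in AMPK KO against WT in DMSO (PLK2), fits that called 2.64% and 8.24% of all genes. Leaving out 1 library gave 0 to 1 in the former, the 1 being IER2 without WT DMSO replicate 3, where 8.46% of all genes were called. Counting error is relatively largest for IER5L and SGK1, with as few as 6 and 17 reads in a library. In the 9 other comparisons the count stayed at 0 under every alternative run.

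The samples share only a replicate number. Over 15 pairs of groups, the correlation of the differences between replicates 3 and 2 ran from -0.122 to 0.322, and it was 0.136, 0.282 and 0.314 among the WT groups. A replicate block over both lines or within each cell line left 0 members called in every comparison. Members with an unadjusted p under 0.05 between the lines in DMSO numbered 4 with the block over both lines and 1 with the block within each cell line, against 2 without, while 23.3% and 24.7% of all genes had one under the blocks. In cordycepin+EGF against DMSO in WT cells, either block brought IER3 under an unadjusted p of 0.05 and took SGK1 above it. With the block within each cell line, a difference between the lines is fitted for replicate 2, not for the group means. The count of 1 and the 24.7% above are therefore of another quantity. On it IER5L was at -0.057 and BCAR3 at -0.023 between the lines in DMSO.

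The count at an unadjusted p under 0.05 was 4 between the lines in DMSO with voom (27% of all genes) and 1 with only the groups compared (10.9%). It was 3, against 5, for cordycepin+EGF against DMSO in WT cells with only the groups compared, and 3 with a filter at 1 RPKM, which removes IER5L and SGK1. Leaving out 1 library gave 1 to 3 for EGF in WT cells, 2 to 6 for cordycepin+EGF against DMSO in WT cells (2 without WT cordycepin+EGF replicate 2 or WT DMSO replicate 2, 3 without WT DMSO replicate 3) and 1 to 4 between the lines in DMSO (1 without WT DMSO replicate 2, 4 without AMPK KO DMSO replicate 2). In these fits the lone library of a group is assumed to vary like the others.

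With 1 library left out, 8 differences turned direction in at least 1 case. Their ranges were -0.44 to 0.091 for IER3 and -0.11 to 0.32 for SGK1 with EGF in AMPK KO cells, -0.11 to 0.49 for IER5L and -0.23 to 0.075 for IER3 with cordycepin in WT cells, and -0.25 to 0.09 for BCAR3 in cordycepin+EGF against DMSO in WT cells. Between the lines they were -0.052 to 0.89 for IER2 and -0.019 to 0.25 for IER5L in DMSO, and -0.006 to 0.28 for PLK3 with cordycepin and EGF. The cause was not tested.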
